A study of Homo sapiens with 4 samples.

Results

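hsa-miR-210 is the microRNA (miRNA) that the array lists under this systematic name, and it is 1 of the 851 human miRNAs on the array. It was chosen by name and not by its signal, although earlier results of these data were known. HepG2, an established human hepatoma cell line, received 40 µM berberine chloride, a plant alkaloid, or 0.08% dimethyl sulfoxide (DMSO) as control, and RNA was taken after 2 h and 4 h. Total RNA of each condition was hybridised to 1 Agilent human miRNA array with a single dye, so the groups are control 2 h, berberine 2 h, control 4 h and berberine 4 h with 1 array each. There were no replicate cultures, so neither 2 h nor 4 h alone has a p-value, and every error given for 1 array covers the measurement and not the culture.

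miR-210 is the best known miRNA of the hypoxia response. Its gene is activated by hypoxia-inducible factor (HIF), a transcription factor that accumulates when oxygen is scarce. It lowers proteins that mitochondria need for respiration, among them the iron-sulfur cluster scaffold ISCU and the cytochrome oxidase assembly factor COX10. Berberine is known to inhibit respiration at complex I of the mitochondrial chain, and inhibiting respiration alters both the use of oxygen and the stability of HIF. The question put to the arrays was therefore whether the signal of this HIF target differed within 4 h of berberine. Oxygen, HIF protein and the target mRNAs of miR-210 were not measured on these arrays.

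The sequences below are from RefSeq for the human assembly GRCh38.p14, on the minus strand of chromosome 11. They show the arm whose name the array's label stands for and the place of both arms in the precursor. The label hsa-miR-210 is the older name of hsa-miR-210-3p, and the array files give no sequence, so the match is by name. In the mature arms, capitals mark the seed, bases 2 to 8, which pairs with target mRNAs.
hsa-miR-210-3p: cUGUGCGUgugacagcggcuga
hsa-miR-210-5p: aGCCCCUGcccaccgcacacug
The 3p arm spans chr11:568112-568133 and the 5p arm chr11:568150-568171. In the hairpin of MIR210, chr11:568089-568198, capitals mark both arms, the 5p arm first.
MIR210 hairpin: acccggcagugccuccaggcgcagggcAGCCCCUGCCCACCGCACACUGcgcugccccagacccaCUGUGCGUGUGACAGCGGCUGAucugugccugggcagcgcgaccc
Among the 2370 mature miRNA names in that table, 0 of another gene had the same seed. By bases 2 to 7 alone, 1 matched, hsa-miR-147b-3p, and the array's hsa-miR-147b was detected on none of the 4 arrays. The hairpin lies within the interval of MIR210HG, a long noncoding RNA gene at chr11:565657-568457, 259 bases after its start.

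HIF binds a hypoxia response element whose core letters are ACGTG or GCGTG. In the 300 bases around the start of MIR210HG (250 before it and 50 after), searched on both strands, ACGTG occurred 1 time, 170 bases before the start, and GCGTG 1 time, 9 bases before it. The stretch around the first, chr11:568593-568657 on the minus strand, has the motif in capitals and is shown because this gene is the known route from HIF to miR-210.
MIR210HG promoter stretch: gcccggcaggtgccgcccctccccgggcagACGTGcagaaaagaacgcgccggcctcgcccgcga
ACGTG was present in 21.4% and either motif in 48.4% of the 35116 promoter windows of the same length in the RefSeq table. The match describes letters only, and binding was not measured.

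All 4 arrays lay on 1 slide, 199 to 242 human miRNAs were detected on each, and 197 were detected on all 4. The deposited signals were not scaled between arrays, whose 75th percentiles over those 197 miRNAs ran from 169 to 297. From the log2 of each signal that of its array's 75th percentile was therefore subtracted, which gave the scaled signal. The hepatocyte markers hsa-miR-122, hsa-miR-192, hsa-miR-194 and hsa-miR-885-5p were detected on all 4 arrays. Signals were dim for hsa-miR-122, at 22.4 to 39.9, and for hsa-miR-885-5p, at 28.5 to 58.0. They were 821 to 1565 for hsa-miR-192 and 498 to 931 for hsa-miR-194. Of 7 markers of blood cells, muscle and neurons, 5 were detected on none. The other 2, hsa-miR-142-3p and hsa-miR-451 of blood cells, were detected only on the berberine 4 h array, at signals of 6.13 and 5.31, and their part in any result was not tested.

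hsa-miR-210 was detected on all 4 arrays at an intermediate brightness. Its total signal, the background-subtracted intensity summed over its probes, on the control 2 h array was 167 ± 12.1, where the error is that of Feature Extraction, the scanner software. It was 114 ± 8.52 on the berberine 2 h array, 127 ± 9.45 on the control 4 h array and 206 ± 14.9 on the berberine 4 h array. The unscaled signals thus moved with the brightness of the arrays, lowest on the dimmest and highest on the brightest. On the scaled log2 axis the levels were -0.55 for control 2 h, -0.57 for berberine 2 h, -0.83 for control 4 h and -0.53 for berberine 4 h. The levels on control 2 h and on both berberine arrays lay close together, and that on control 4 h lay below them. Expressed per array, the signal was 68.5%, 67.6%, 56.2% and 69.4% of the 75th percentile, in the same order.
Ordered from low to high, the scaled levels ran from control 4 h through berberine 2 h and control 2 h to berberine 4 h. The steps between neighbours in this order were 0.26 (standard error, SE, 0.15), 0.019 (SE 0.15) and 0.019 (SE 0.15) on the log2 scale. None of these 3 steps exceeded 1.96 SE.

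**Figure D1:**
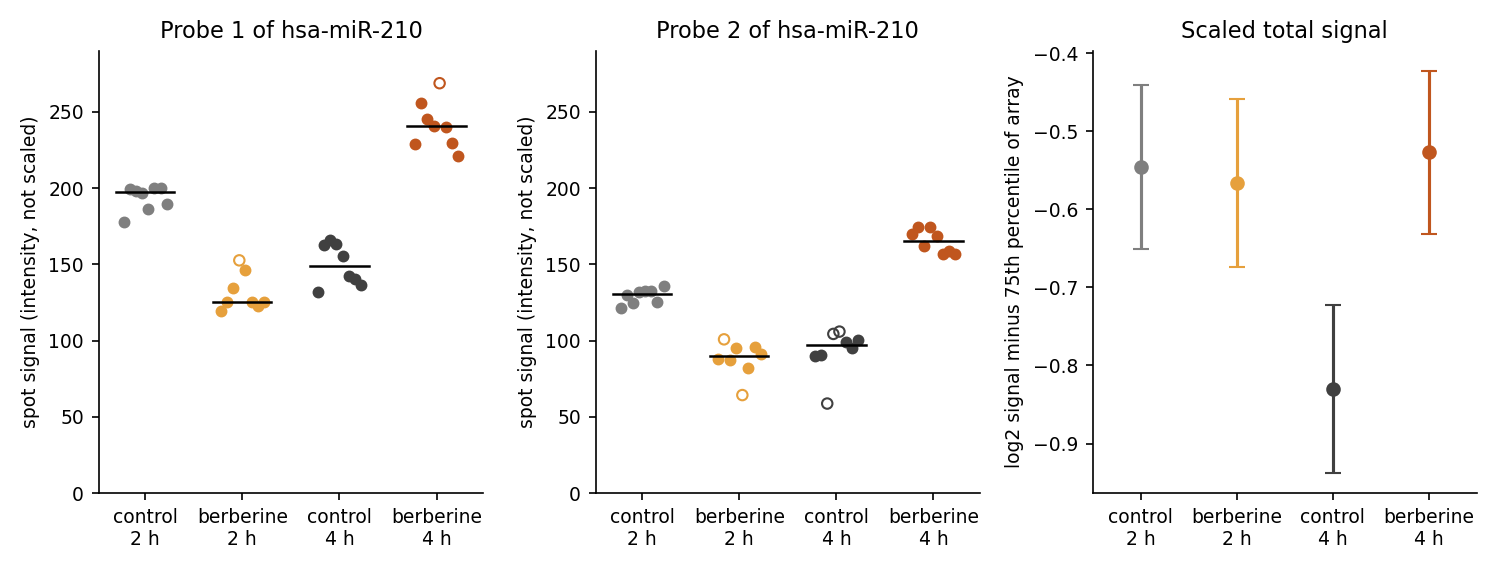
The first and second panels plot the unscaled spot signal (intensity) of the 2 probes of hsa-miR-210 on each of the 4 arrays, with 8 spots per probe and array, a line at the median and open circles for spots marked as outliers by Feature Extraction. The last panel plots the scaled total signal (log2) with 1 error of Feature Extraction, where control 4 h lies at -0.83 and the other arrays between -0.57 and -0.53.

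After 2 h, hsa-miR-210 did not differ between berberine and control beyond the measurement error. The ratio of the scaled signals, berberine over control, was 0.987-fold (log2 ratio -0.02, SE 0.15), with a 95% range of 0.804-fold to 1.21-fold. The median log2 ratio of all 197 miRNAs with a ratio at 2 h was -0.02, so hsa-miR-210 lay at the middle of the profile, with 96 miRNAs above it and 100 below. Past 2-fold were 1.02% of the miRNAs at 2 h, and beyond 1.96 SE of 0 were 9.14%. hsa-miR-210 was in neither set. Without scaling its ratio was 0.686-fold, beside a 75th percentile of 169 on the berberine 2 h array and 243 on the control 2 h array.
After 4 h, the scaled ratio was 1.23-fold (log2 ratio 0.30, SE 0.15), with a 95% range of 1.01-fold to 1.51-fold. The range lay just above no change and below 2-fold. Of the 218 miRNAs with a ratio at 4 h, 35 were higher than hsa-miR-210 and 182 lower, against a median log2 ratio of 0.11. At that time 0.917% of the miRNAs were past 2-fold, and hsa-miR-210 was not among them. Beyond 1.96 SE of 0 were 11.5% in either direction and 8.72% in the higher direction, a set that held hsa-miR-210 by a ratio of 2.02 SE. Scaled to the median of each array instead, hsa-miR-210 had a log2 ratio of 0.13, within 1.96 SE of 0. The range included 0 in 8 of 10 alternatives in all. These 8 hold the scaling on all 851 human miRNAs and a comparison with the control 2 h array that was added after the values were seen.

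Between the 2 control arrays, which held no berberine, hsa-miR-210 had a log2 ratio of -0.28 (SE 0.15), 4 h over 2 h. This ratio depended on the scale, and was -0.07 with each array scaled to its median and -0.39 without scaling. Between the berberine arrays the log2 ratio, 4 h over 2 h, was 0.04 (SE 0.15). Against the control array of 2 h in place of that of 4 h, a comparison added after the values were seen, berberine 4 h stood at a log2 ratio of 0.02.
The difference between the control arrays was thus of a size with the ratio at 4 h, and time and array cannot be told apart in it. Of all 219 miRNAs with a ratio between the control arrays, 184 were higher than hsa-miR-210 and 34 lower, at a median log2 ratio of -0.08. Of the 98 miRNAs brighter than the median of the 197, the other 97 all had a higher ratio than hsa-miR-210 between the control arrays. Among these, hsa-miR-194 was nearly level with it at -0.28 (SE 0.16), and hsa-miR-17 was at -0.27 (SE 0.14). Over the 98 the median log2 ratio between the control arrays was -0.08 and the standard deviation (SD) 0.088. Among the same 98, 7 had a higher ratio than hsa-miR-210 at 4 h of berberine over control, where the median was 0.12 and the SD 0.14. At 2 h, 47 of the 98 had a higher ratio. The brighter miRNAs were set apart after the values were seen, because they have smaller errors.

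Both probes of hsa-miR-210 gave the same picture. On every array all 8 spots of each probe were well above background, and none was saturated. The first probe had median spot signals of 198, 126, 149 and 240.4 on control 2 h, berberine 2 h, control 4 h and berberine 4 h, beside a local background of 24 to 26.3. The second probe had 131, 89.6, 97.0 and 165, in the same order, beside a background of 23.5 to 27.5. The first probe was brighter than the second on each array, by 1.43-fold to 1.58-fold. The spread of the 8 spots was 3.70% to 16.2% of their mean, widest for the second probe on the control 4 h array, where 3 of 8 spots were marked as outliers.
At 2 h the log2 ratio was -0.05 (SE 0.21) with the first probe and 0.02 (SE 0.21) with the second, and the spot ranges of both probes overlapped once taken as a share of the 75th percentile of the array. The unscaled spots at 2 h did not overlap, with berberine 2 h, the dimmest array, below control 2 h for both probes. At 4 h it was 0.25 (SE 0.21) with the first probe and 0.38 (SE 0.21) with the second, so neither probe alone lay beyond 1.96 SE. As a share of the 75th percentile of the array, the 8 control spots of the first probe at 4 h ran from 58.5% to 73.6% and the berberine spots from 74.2% to 90.4%. For the second probe the control spots ran from 26.1% to 47.0% and the berberine spots from 52.7% to 58.8%. On this scale the spots of the 2 conditions did not overlap at 4 h. They were not compared with the median of the array as the scale, where the log2 ratio of the total signal was 0.13 in place of 0.30. Spots of 1 array also share 1 RNA sample and 1 hybridisation and are not replicates. Between the control arrays the log2 ratio was -0.25 (SE 0.21) with the first probe and -0.33 (SE 0.21) with the second.

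In a single fit over both times, hsa-miR-210 was not called changed. The limma fit held treatment and time point, with the 2 times in place of replicates, and its log2 ratio was 0.14 (SE 0.21), with a 95% interval of 0.828-fold to 1.47-fold and an adjusted p of 0.997 from limma. Of the 197 miRNAs in the fit 0.508% were called, which is 1 miRNA, hsa-miR-21*. Neither that call nor any other was made in limma under 6 alternatives (no scaling, median scaling, quantile normalization, summing the same probes, only the brighter miRNAs, no time point). In these, 0 to 5 miRNAs had an unadjusted p under 0.05, against 9 here. hsa-miR-21* was not among the 98 brighter miRNAs, so the fit of those could not call it. Leaving out 1 array gave 0 calls in 3 fits and 1 call without berberine 4 h. hsa-miR-21*, now named hsa-miR-21-3p, had log2 ratios of 2.59 at 2 h and 1.68 at 4 h. Without the control 4 h array, and without the time point, the log2 ratio of hsa-miR-210 was -2.82e-05, and over the 4 fits that each left out 1 array it ran up to 0.28, with adjusted p-values of 0.770 to 1.00 from limma. The difference between the times, 4 h minus 2 h, was 0.32 (SE 0.21) for hsa-miR-210, and 40 of the 197 miRNAs had a larger one.

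**Figure D2:**
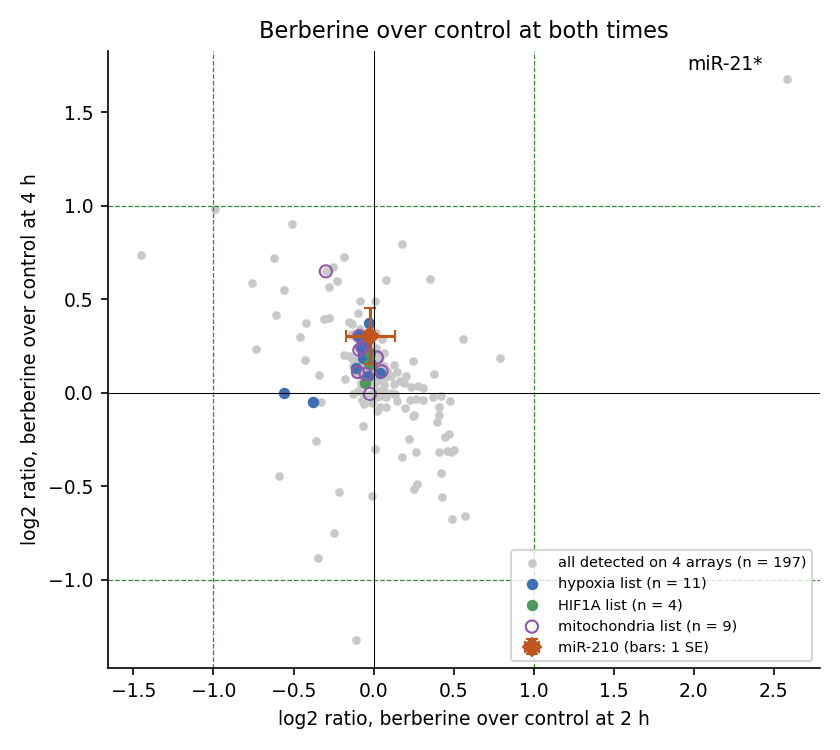
Each point is 1 of the 197 human miRNAs detected on all 4 arrays, with its log2 ratio of berberine over control at 2 h on the horizontal axis and at 4 h on the vertical axis. Dashed lines mark 2-fold. hsa-miR-210 lies at -0.02 and 0.30 with bars of 1 SE, inside the 2-fold lines and among the members of the 3 related lists, while hsa-miR-21* lies at 2.59 and 1.68.

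Other miRNAs known from hypoxia were examined for the same question. A first list held 15 miRNAs, apart from hsa-miR-210, that have been described to rise in hypoxia, all present on the array. Of these, 11 were detected on all 4 arrays, and hsa-miR-155, hsa-miR-181c, hsa-miR-373 and hsa-miR-424 on none. At 2 h, 0 of 11 were past 2-fold or beyond 1.96 SE of 0, beside 1.02% and 9.14% of all miRNAs. The median log2 ratio of the 11 was -0.07 against -0.02 for all miRNAs. By sign alone 1 was above and 10 below 0, where 114 of all 197 were below. At 4 h, 0 of 11 were past 2-fold, beside 0.917% of all miRNAs. By sign 9 were above and 2 below 0, where 69.7% of all were above. The median of the 11 was 0.19 against 0.11 for all. The 11 shared the control 4 h array with hsa-miR-210. Their median log2 ratio between the control arrays was -0.07, against -0.08 for all 219 miRNAs with that ratio. With each array scaled to its median instead, the list's median at 4 h was 0.016. At 4 h, 1 of 11 lay beyond 1.96 SE of 0, beside the 11.5% of all miRNAs.
That miRNA was hsa-miR-27a of the miR-23/27/24 clusters, with signals of 82.8, 56.3, 65.8 and 112 on control 2 h, berberine 2 h, control 4 h and berberine 4 h. Its log2 ratio was -0.03 (SE 0.17) at 2 h and 0.38 (SE 0.16) at 4 h, the highest of the list at that time. Like hsa-miR-210, it was lower on the control 4 h array than on the control 2 h array, by a log2 ratio of -0.22. With the median as the scale its ratio at 4 h was 0.20, within 1.96 SE of 0. hsa-miR-23a, named after its values were seen, was the other member above hsa-miR-210 at 4 h, and its signals were 148, 96.9, 136 and 220.5 in the same order of arrays. Its log2 ratio at 4 h was 0.30 (SE 0.16), within 1.96 SE of 0. Unlike hsa-miR-210, it was nearly level between the control arrays, at a log2 ratio of -0.02 (SE 0.17), and the difference between the 2 miRNAs was not tested. The highest of the list at 2 h was hsa-miR-107, which lies in an intron of a pantothenate kinase gene, with 0.04 (SE 0.16). The lowest were hsa-miR-181a at 2 h, with -0.56 (SE 0.32) that turned to 0.02 where each array summed the same probes, and hsa-miR-181b at 4 h, with -0.05 (SE 0.25). The signals of both were dim, from 9.71 to 24.1 over the 4 arrays.

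The mRNA of the oxygen-regulated HIF subunit, HIF1A, is itself a described target of miRNAs, and a second list held 6 of these. hsa-miR-17, hsa-miR-18a, hsa-miR-20a and hsa-miR-20b, which belong to the miR-17-92 cluster and its paralog, were detected on all 4 arrays, and hsa-miR-199a-5p and hsa-miR-519c-3p on none. None of the 4 lay past 2-fold or beyond 1.96 SE at either time, beside shares over all miRNAs of 1.02% and 9.14% at 2 h and 0.917% and 11.5% at 4 h. At 2 h their log2 ratios ran from -0.05 for hsa-miR-18a to -0.02 for hsa-miR-20a, with a median of -0.02 that turned to 0.0092 with quantile normalization and to 0.0047 where each array summed the same probes. At 4 h they ran from 0.05 for hsa-miR-18a to 0.21 for hsa-miR-17, with a median of 0.15 that turned to -0.017 with the median as the scale and to -0.010 with quantile normalization. The median log2 ratio of the 4 between the control arrays was -0.11, against -0.08 for all 219 miRNAs with that ratio.

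The last list held 14 miRNAs described to act on mitochondrial or energy metabolism genes, of which 4 also stand on the first list. Here 9 were detected on all 4 arrays, 4 on none, and hsa-miR-195 only on control 2 h and berberine 4 h, so that it had no ratio. At 2 h, 2 were above and 7 below 0, where 114 of all 197 miRNAs were below. The median log2 ratio of the 9 at 2 h was -0.07 against -0.02 for all miRNAs. Past 2-fold at 2 h were 0 of 9, beside 1.02% of all miRNAs. Beyond 1.96 SE of 0 lay 0 of 9, beside 9.14% of all miRNAs. At 4 h, 8 were above and 1 below 0, where 69.7% of all miRNAs were above. Past 2-fold at 4 h were 0 of 9, beside 0.917% of all miRNAs. The median of the 9 at 4 h was 0.19 against 0.11 for all. It was 0.017, with 5 of 9 above 0, when each array was scaled to its median. The median log2 ratio of the 9 between the control arrays was -0.04, against -0.08 for all 219 miRNAs with that ratio. The highest at 2 h was hsa-miR-15b, with 0.05 (SE 0.15), and the lowest at 4 h was hsa-miR-338-3p, with -0.01 (SE 0.17).
At 4 h, 1 of 9 lay beyond 1.96 SE of 0, a share near the 11.5% of all miRNAs. This was hsa-miR-378, encoded within PPARGC1B, the gene of a coactivator of mitochondrial and metabolic genes. Its signals were dim, at 21.1 on control 2 h, 11.9 on berberine 2 h, 12.6 on control 4 h and 26.0 on berberine 4 h. The log2 ratio was -0.30 (SE 0.29) at 2 h and 0.65 (SE 0.27) at 4 h. Summed over the same probes on all arrays, it was 0.16 at 2 h and 0.08 at 4 h, so that both values rested on which probes were counted.

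**Figure D3:**
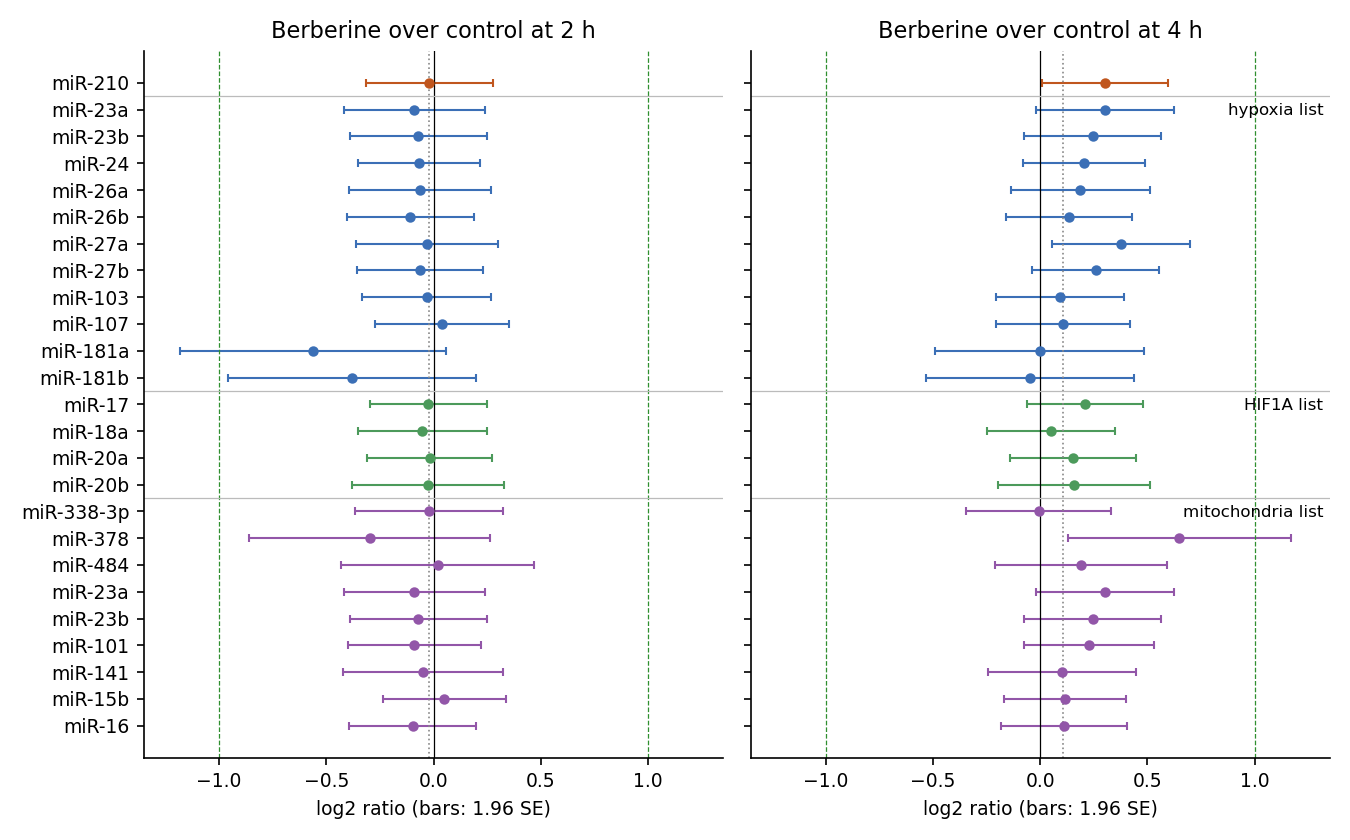
The log2 ratio of berberine over control is plotted for hsa-miR-210 and for the detected members of the 3 related lists at 2 h (left) and 4 h (right), with bars of 1.96 SE from Feature Extraction. The dotted line is the median of all miRNAs with a ratio, -0.02 at 2 h and 0.11 at 4 h, and dashed lines mark 2-fold. At 4 h the bars of hsa-miR-210, hsa-miR-27a and hsa-miR-378 lie above 0.

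The profile of hsa-miR-210 over the 4 arrays was shared by other miRNAs. Each scaled profile was centred on its own mean, and likeness was measured as the root mean square difference from hsa-miR-210 over the 4 arrays, which had a median of 0.12 over the other 196 miRNAs. The closest was hsa-miR-194, a miRNA of liver and gut, at 0.019, followed by hsa-miR-29c at 0.030, hsa-miR-99b at 0.035, hsa-miR-185 at 0.036 and hsa-miR-17 at 0.037. All 5 were lowest on the control 4 h array. For hsa-miR-194 the total signals were 744 on control 2 h, 498 on berberine 2 h, 566 on control 4 h and 931 on berberine 4 h. In the order named, the log2 ratios of the 5, berberine over control at 4 h, were 0.32, 0.24, 0.32, 0.26 and 0.21, and between the control arrays, 4 h over 2 h, they were -0.28, -0.22, -0.21, -0.19 and -0.27. At 2 h the 5 lay between -0.05 for hsa-miR-194 and 0.01 for hsa-miR-99b. They were picked for this likeness, so their likeness is a description.
The miRNAs nearest in mean scaled signal, where hsa-miR-210 ranked 65 of 197, differed less between the control arrays. Signals of different probes do not rank abundance, and these neighbours show only what miRNAs of like brightness measured. At 4 h the log2 ratio of berberine over control was -0.08 for hsa-miR-140-5p, -0.12 for hsa-miR-324-3p, 0.09 for hsa-miR-331-3p and 0.05 for hsa-let-7g, each with an SE of 0.15. Between the control arrays these 4 lay from -0.08 to -0.04. The log2 ratio of hsa-miR-210 between the control arrays, -0.28, lay below all 4. hsa-miR-331-3p was also lowest on the control 4 h array, at a scaled level of -0.69. On control 2 h, berberine 2 h and berberine 4 h it was at -0.61, -0.61 and -0.60. The other neighbours were lowest on a berberine array.

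**Figure D4:**
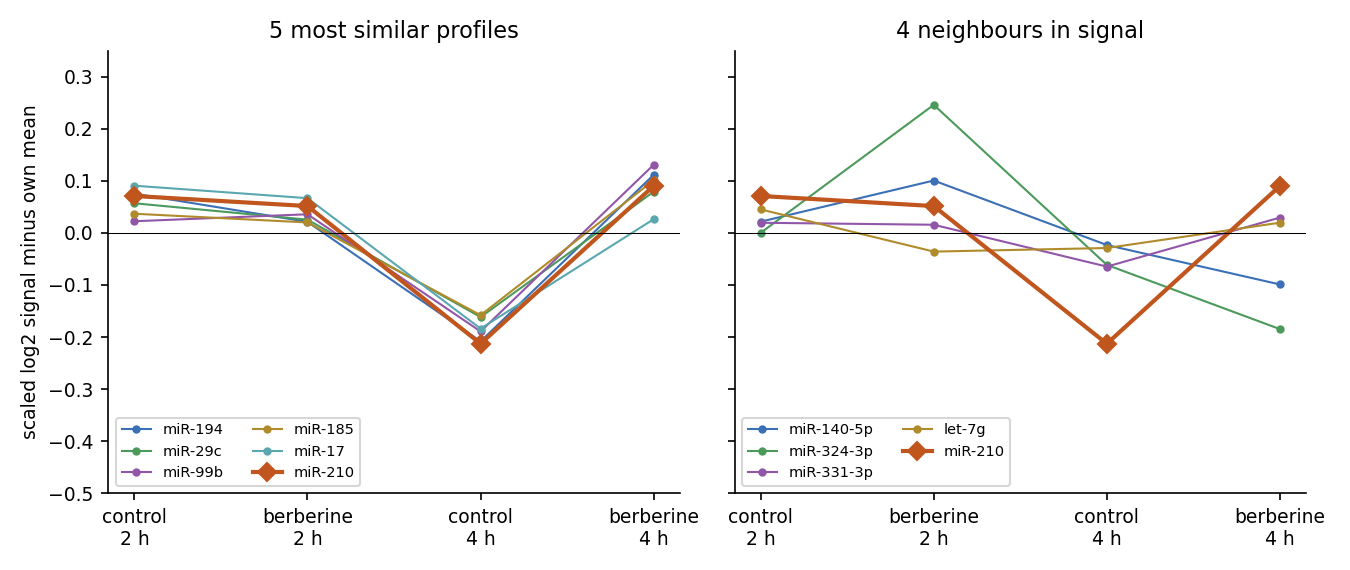
The scaled log2 signal minus the miRNA's own mean is plotted over the 4 arrays for hsa-miR-210 (diamonds) with the 5 miRNAs closest to it in profile (left) and with its 4 neighbours in mean signal (right). Lines join arrays only to guide the eye. hsa-miR-210 and the 5 closest profiles are lowest on the control 4 h array, whereas the 4 neighbours differ less between the control arrays.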

How the data were processed

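The authors deposited 4 one-colour Agilent miRNA array files made with Feature Extraction 10.7.3.1, whose background-subtracted intensity per spot, probe and miRNA is not scaled between arrays. The deposited table of the authors' own ratios was not used. A miRNA not detected is written as 0.1. From the intensities, log2 of the total signal minus the 75th percentile over 197 human miRNAs detected on all 4 arrays was computed. A ratio needed detection on both arrays, and its SE combined the Feature Extraction errors of both signals, with 1.96 SE as the 95% range. The 2-fold threshold is descriptive, with no test. limma 3.58.1 in R 4.3.3 was fitted across all 197 miRNAs with the Benjamini-Hochberg adjustment at 0.05, and was tested on simulated data. Named were hsa-miR-210, 2 neighbours in signal on each side, the 5 closest profiles, the extremes of each list and hsa-miR-21*. hsa-miR-210 and the lists were chosen with earlier results of these data known. The number of arrays limits the precision. Python 3.11.15, numpy 2.4.6, pandas 2.3.3 and matplotlib 3.10.9 were used.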

Additional observations from a re-analysis of the deposited data

Results flagged for a closer look

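The log2 ratio, berberine over control, changed sign between 2 h and 4 h in 13 of 20 miRNAs named here and in 133 of the 197 detected on all 4 arrays. Whether it differs between the times was not tested, since each condition has 1 array. For hsa-miR-210 the difference, 4 h minus 2 h, was 0.32. Among the closest profiles it was 0.37 for hsa-miR-194, 0.27 for hsa-miR-29c, 0.28 for hsa-miR-185 and 0.23 for hsa-miR-17. Among the neighbours in signal it was -0.15 for hsa-miR-140-5p, -0.37 for hsa-miR-324-3p, 0.10 for hsa-miR-331-3p and 0.13 for hsa-let-7g. Among the list members it was 0.41 for hsa-miR-27a, 0.17 for hsa-miR-20a, 0.10 for hsa-miR-18a and 0.95 for hsa-miR-378. The SE of these differences ran from 0.20 to 0.39, and only that of hsa-miR-378 lay beyond 1.96 SE of 0. Where each array summed the same probes, hsa-miR-378 had log2 ratios of 0.16 at 2 h and 0.08 at 4 h, so that its difference lost both this size and its direction.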

How the results depend on the processing

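Values are log2 ratios. The comparison with the other control array, the place among brighter miRNAs and the alternatives for the other named miRNAs were chosen after the data were seen. The deposited ratios, planned as an alternative, were not run, since they are the authors' own comparisons, and normexp used the median spot signal. Cultures could not be paired because the groups share only replicate number 1, with 1 array each. The limma fit pairs the arrays by time, since it compares berberine with control within each time. The cause of each change was not tested unless named. For hsa-miR-210, 7 of 9 alternatives at 2 h and 8 of 10 at 4 h stayed within 1.96 SE of the value given. Without scaling hsa-miR-210 was at -0.54 at 2 h, 0.70 at 4 h and 0.85 for berberine 4 h over 2 h, and the medians of the hypoxia, HIF1A and mitochondria lists were -0.59, -0.55 and -0.60 at 2 h and 0.59, 0.55 and 0.59 at 4 h, since the arrays differ in brightness. When all 851 human miRNAs set the 75th percentile, which then fell on undetected miRNAs at berberine 2 h, hsa-miR-210 was at 5.09 at 2 h, -0.10 at 4 h, 0.22 between the controls and -4.97 between the berberine arrays. With median scaling the hypoxia and HIF1A medians at 4 h were 0.016 and -0.017. With quantile normalization they were 0.030 and -0.010 at 4 h, and the HIF1A median at 2 h was 0.0092. With the same probes summed the HIF1A medians were 0.0047 and 0.071. The limma ratio of hsa-miR-210 stayed positive under 6 alternatives, with adjusted p-values of 0.990 to 1.00. Leaving out 1 array, in fits without the time point, it ran from -2.82e-05 to 0.28. Of the list members, 2 passed 2-fold in an alternative, both without scaling, hsa-miR-181a at 2 h with -1.09 and hsa-miR-378 at 4 h with 1.05.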
